A study of Drosophila melanogaster with 3 samples.

Results

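The mitochondrial ribosomal protein genes are nuclear genes for the protein subunits of the mitochondrial ribosome. They were taken from the Ensembl BDGP6 annotation as all protein-coding genes whose symbol starts with mRpL (large subunit) or mRpS (small subunit). This gave 73 of 13968 protein-coding genes on the chromosome arms, 47 named for the large and 26 for the small subunit. The subunit was read from the symbol alone, and any gene of this kind under another symbol was not taken. Their promoters were examined in a chromatin immunoprecipitation and sequencing (ChIP-seq) study of FoxP, also called fd85E, a forkhead transcription factor and the only FOXP-type one of the fly. Whole Drosophila melanogaster prepupae of 1 transgenic line, males and females pooled, carried FoxP tagged with eGFP at its C terminus, and the fusion protein was precipitated with an antibody against GFP. The 3 biological replicates form 1 group, so there was no other genotype or treatment to compare with, and tissues were not separated. The age within the prepupal stage is unknown.

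The mitochondrial ribosome translates the few proteins encoded by mitochondrial DNA, which are subunits of the respiratory chain and of ATP synthase. All of its proteins are made in the cytoplasm from nuclear genes and imported. Many have a counterpart in the bacterial ribosome, and the others were added during the evolution of mitochondria. In the compact fly genome such housekeeping genes often lie head to head with another gene, with both transcribed away from a short shared stretch of DNA.

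Stretches of DNA around 4 of the summits are shown: those of mRpS23, mRpS10 and mRpL23, which are among the strongest regions described below, and that of mRpL2, which is shared with another forkhead gene. A summit is the position of highest signal that the authors gave for a region. Each stretch is read from the Release 6 genome (dm6), plus strand, 5′ to 3′, and reaches up to 75 bases to either side of the summit, with untranslated exons left out. Capitals mark matches to the motifs listed further on. The mRpS23 stretch is chr2L:13835371-13835521 and lies outside any gene, between the starts of mRpS23 and CenG1A. The mRpS10 stretch is chr3R:15229440-15229590, between the starts of mRpS10 and Art3, and its capitals are the forkhead core TGTTTAC, which is GTAAACA on the other strand. The mRpL23 stretch is chr3L:2373520-2373596 and its summit lies in an intron of mRpL23. The mRpL2 stretch is chr3L:11120426-11120576, its summit lies in an intron of FoxK, and its capitals are matches to the wider forkhead form and to GAGAG.
mRpS23: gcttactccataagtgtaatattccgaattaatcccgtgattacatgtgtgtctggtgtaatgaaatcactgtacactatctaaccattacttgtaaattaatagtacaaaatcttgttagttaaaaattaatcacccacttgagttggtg
mRpS10: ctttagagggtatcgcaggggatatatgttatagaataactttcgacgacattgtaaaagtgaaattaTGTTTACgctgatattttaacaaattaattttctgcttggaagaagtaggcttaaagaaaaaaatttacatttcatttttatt
mRpL23: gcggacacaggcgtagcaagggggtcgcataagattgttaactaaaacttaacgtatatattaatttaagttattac
mRpL2: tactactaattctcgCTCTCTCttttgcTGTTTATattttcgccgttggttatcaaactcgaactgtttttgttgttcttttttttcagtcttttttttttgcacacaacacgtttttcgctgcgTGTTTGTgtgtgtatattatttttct

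The lists give regions and a signal value for each, the authors' own score, which has no stated scale and is comparable only within a list. Replicate 1 listed 30000 regions, replicate 2 24326 and replicate 3 22698, and a further 30000 were listed from the reads of all 3 together. The thresholded list is the best-ranked part of this pooled list. The median signal value was 19.1, 20.8 and 19.8 in replicates 1, 2 and 3 and 47.8 in the pooled list. Read depth is unknown. Replicate 2 alone listed no region on the mitochondrial genome, while replicate 1 listed 25, replicate 3 listed 20 and the pooled list 20. All ranks given here count these regions, so ranks near the top may not be comparable between replicate 2 and the other lists. The last thresholded region had a signal value of 134.19 and the first one below it 134.18, so the threshold does not fall at a gap.

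Of the 73 mitochondrial ribosomal protein genes, 10 had a thresholded summit within 500 bp of a start, here called a promoter summit (13.7%, 95% Wilson interval 7.61 to 23.4). The share among all protein-coding genes was 8.96%, inside that interval, so the count is near the background. The large subunit accounted for 7 of the 10 (mRpL2, mRpL18, mRpL20, mRpL23, mRpL24, mRpL33 and mRpL41) and the small subunit for 3 (mRpS2, mRpS10 and mRpS23). The shares were 14.9% (7.41 to 27.7) for the large and 11.5% (4.00 to 29.0) for the small subunit, with overlapping intervals. Of the 10, 8 belonged to the 45 members with a bacterial counterpart (17.8%, 9.29 to 31.3). The other 2, mRpL41 and mRpS23, belonged to the 28 members of mitochondrial origin (7.14%, 1.98 to 22.6), and these intervals also overlapped. Each of the 10 genes had a region of its own. They were spread over 2L (3 of 12 members, against 8.43% of all genes there), 2R (2 of 12, against 8.94%), 3L (3 of 17, against 10.3%), 3R (1 of 21, against 8.89%) and X (1 of 11, against 8.33%).

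Of the 10 regions, 4 were very strong and the other 6 weaker, though all were above the threshold. In the better-ranked part of the thresholded list lay 5 of the 10, against 55.9% of all genes with a promoter summit. The share of all genes with regions as strong or narrow as these 4 was not counted. The region at mRpS23, which encodes a small-subunit protein of mitochondrial origin (FBgn0260407, 2L, 13834250 to 13835072, minus strand), had a pooled signal value of 1216 and ranked 21 of 30000. Its signal value was 401, 482 and 334 in replicates 1, 2 and 3, where it ranked 29, 4 and 19. It was a top region in each of the 3 replicates. The region at mRpL41, a large-subunit protein of mitochondrial origin (FBgn0034001, 2R, 15217024 to 15217617, minus strand), had a pooled signal value of 884 (rank 35). Its replicate signal values were 314, 317 and 248, with ranks 40, 21 and 38. The region at mRpS10, the counterpart of bacterial ribosomal protein S10 (FBgn0038307, 3R, 15229665 to 15230516, plus strand), had a pooled signal value of 738 (rank 54). Its replicate signal values were 241, 279 and 222 and its ranks 70, 35 and 47, which places it just behind the other two in all 3 replicates. The region at mRpL23, the counterpart of a bacterial protein at the exit of the ribosomal tunnel (FBgn0035335, 3L, 2372844 to 2373704, minus strand), had a pooled signal value of 529 (rank 116). Its replicate signal values were 179, 209.7 and 134, with ranks 130, 75 and 148. These 4 regions were also narrow, at 305, 269, 232 and 181 bp, whereas the other 6 had the width of 416 bp that is the most common in the list. The order mRpS23, mRpL41, mRpS10, mRpL23 was the same in all 3 replicates.

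The other 6 regions were weaker, and their order differed between replicates. The region at mRpS2 (FBgn0031639, 2L, 4849439 to 4850419) had a pooled signal value of 242 (rank 750) and signal values of 75.1, 94.1 and 69.3 in replicates 1, 2 and 3, at ranks 1184, 607 and 841. It was the only one of the 6 above the median signal value of the thresholded list, 193. The region at mRpL2 (FBgn0036135, 3L, 11120847 to 11122041), whose bacterial counterpart lies near the peptidyl transferase centre, had 181 in the pooled list and 73.9, 58.4 and 41.3 in the replicates, at ranks 1238, 1621 and 2590. The region at mRpL20 (FBgn0036335, 3L, 13017149 to 13017867) had 169 in the pooled list and 60.6, 63.4 and 45.8 in the replicates, at ranks 1869, 1385 and 2087. Both ranked lowest in replicate 3. The region at mRpL24 (FBgn0031651, 2L, 4944256 to 4945361) had 161 in the pooled list, with 79.5, 45.8 and 31.7 in replicates 1, 2 and 3. The region at mRpL18 (FBgn0026741, 2R, 12756434 to 12757173) had 154 in the pooled list, with 40.5, 67.6 and 38.4 in replicates 1, 2 and 3. The region at mRpL33 (FBgn0040907, X, 4321764 to 4322231) had 153 in the pooled list, with 53.9, 38.4 and 50.1. The best rank was in replicate 1 for mRpL24, in replicate 2 for mRpL18 and in replicate 3 for mRpL33, and ranks ran from 1055 to 4356 (mRpL24), 1206 to 4015 (mRpL18) and 1719 to 3565 (mRpL33).

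**Figure D1:**
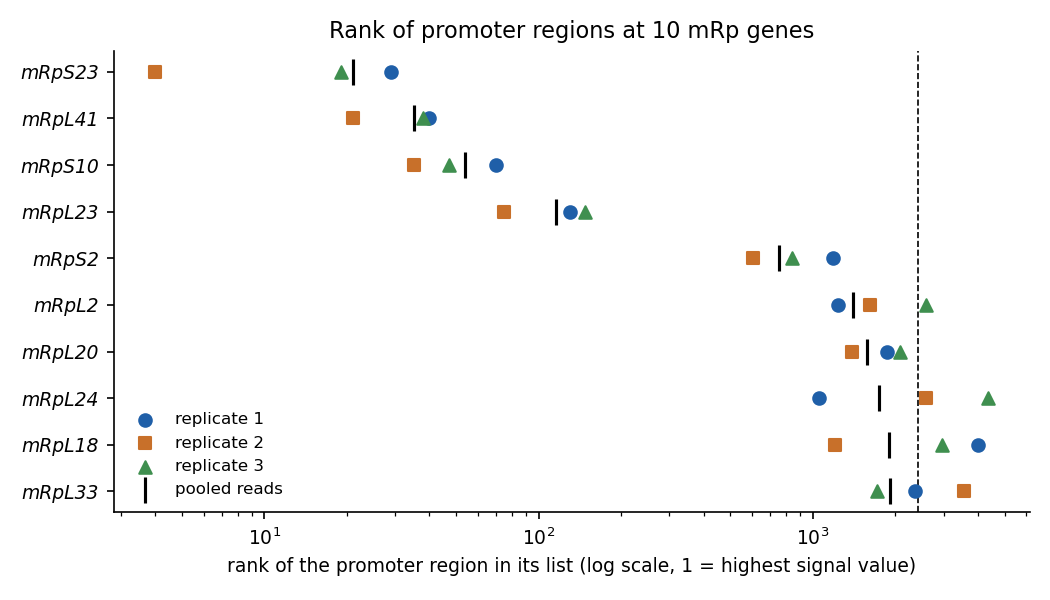
Rank of the promoter region at each of the 10 mitochondrial ribosomal protein (mRp) genes in the lists of replicates 1, 2 and 3 (points) and in the pooled list (black ticks), on a log axis where 1 is the highest signal value. The dashed line marks a rank equal to the number of thresholded regions. The points of mRpS23, mRpL41, mRpS10 and mRpL23 lie at ranks 4 to 148, and those of mRpL2, mRpL24, mRpL18 and mRpL33 fall on both sides of the line.

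From each replicate, as many best-ranked regions were taken as the thresholded list has. A region counted as held by a replicate when it overlapped one of these by at least 1 bp. All 3 replicates held the regions at 6 members, mRpS23, mRpL41, mRpS10, mRpL23, mRpS2 and mRpL20. These are 8.22% of the members, against 5.24% of all protein-coding genes. Replicates 1 and 2 held the region at mRpL2, and replicates 1 and 3 that at mRpL33. Replicate 1 alone held the region at mRpL24, and replicate 2 alone that at mRpL18. Replicate summits lay close to the pooled summit, at a median distance of 13 bp and at most 47 bp for these 10 genes. Counted from the replicates' own lists, 11, 9 and 8 members had a promoter summit among these best-ranked regions of replicates 1, 2 and 3. The matching shares of all protein-coding genes were 9.29%, 9.64% and 9.34%. In all 3 at once there were 6 members, against 5.38% of all genes. The interval of the members included the share of all genes in each of these counts.

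Of the 10 summits, 9 were shared with the start of a neighbouring protein-coding gene, and 7 of those 9 lay nearer to the neighbour's start. The neighbour was in each case transcribed in the opposite direction, head to head with the ribosomal protein gene. Shared summits were found at 12.3% of the members (6.62 to 21.8), against 3.86% of all protein-coding genes, a share below that interval. These shares are not matched for close neighbours, which a shared summit requires. Another start lay within 500 bp for 74.0% of the members and 30.8% of all genes. Among such genes, 16.7% of the members (9.02 to 28.7) and 14.0% of all genes had a promoter summit, a share inside that interval. The sonicated fragments were 200 to 800 bp long, and the paired starts, taken nearest to the summit, were 20 to 492 bp apart. Of all 1252 genes with a promoter summit, 539 (43.1%) shared it, and for 80.4% the summit had no nearer start of another gene. That held for 3 of the 10 members, mRpL41, mRpL23 and mRpL24. A summit that is not shared has no nearer start by construction, so the 80.4% is no like comparison for members that mostly shared theirs. The share among only the shared summits of all genes was not counted. When a summit counted only for the gene with the nearest start, 4.11% of the members (1.41 to 11.4) had one, against 7.21% of all genes. Of the 9 shared summits, 5 were upstream of every start of both genes, in the stretch between them. The one at mRpL2, was upstream of an inner start of its neighbour and downstream of the outermost one.

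The strongest shared summit lay 374 bp upstream of the start of mRpS23 and 118 bp upstream of that of CenG1A, which encodes a GTPase-activating protein for Arf. The mRpS10 summit was 150 bp upstream of its start and 107 bp upstream of that of Art3, an arginine methyltransferase gene. The forkhead core in the mRpS10 stretch printed above was centred 4 bp from this summit. The mRpS2 summit was 145 bp upstream of its start and 77 bp upstream of that of Mon1, a gene for a factor of late endosome formation. The mRpL2 summit was 346 bp upstream of its start and 90 bp upstream of an inner start of FoxK, itself a forkhead gene. It was also 282 bp downstream of the outermost FoxK start, which lies 64 bp from the start of mRpL2, and so inside FoxK. The mRpL20 summit was 249 bp upstream of its start and 150 bp upstream of that of Icmt, which methylates prenylated proteins. The mRpL24 summit was nearer to its own start, at 102 bp upstream, than to that of betaggt-I, a geranylgeranyl transferase subunit gene, at 116 bp. At mRpS23, mRpS10, mRpS2, mRpL20 and mRpL24 the summit lay between the genes.

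The other 3 shared summits were not between the starts. The mRpL23 summit was 83 bp downstream of its nearest start and 133 bp upstream of that of CG9004. The mRpL18 summit was 160 bp upstream of its start and lay in the 5′ UTR of Taz, 140 bp downstream of the Taz start. Taz encodes tafazzin, which remodels the mitochondrial lipid cardiolipin. The mRpL33 summit was 442 bp upstream of its start and lay in the 5′ UTR of norpA, 47 bp downstream of that start. The gene norpA encodes the phospholipase C of phototransduction. Of the 10, only mRpL41 had no start of another protein-coding gene within 500 bp of its summit, which was 147 bp upstream. The start of a long non-coding RNA gene, CR44463, was within that distance. The nearest protein-coding start to that of mRpL41, CG8079, was 762 bp away.

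**Figure D2:**
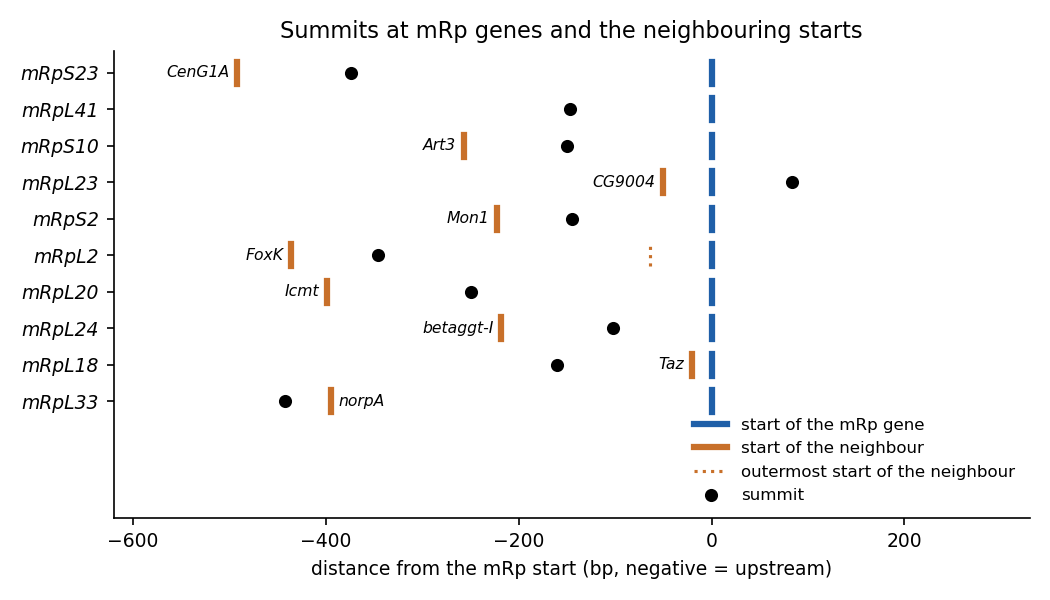
Position of the thresholded summit (black) relative to the start of each of the 10 mRp genes (blue, at 0) and the start of the neighbour nearest to the summit (orange; its outermost start dotted where it is another), in bp. Negative positions are upstream of the mRp gene. The summits of mRpS23, mRpS10, mRpS2, mRpL20 and mRpL24 lie between the starts, that of mRpL2 lies between its start and an inner start of FoxK, and mRpL41 has no neighbouring start within 500 bp of its summit.

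Close neighbours are a general feature of these genes. Of the 73 members, 54 (74.0%) had the start of another protein-coding gene within 500 bp of one of their own, against 30.8% of all protein-coding genes. For 52 of the members (71.2%) and 25.3% of all genes that neighbour lay head to head. Among genes with a start that close, 9 of the 54 members (16.7%, 9.02 to 28.7) and 14.0% of all genes had a promoter summit. None of the 13 members without any other start within 1000 bp had one, which allows a share of up to 23.1%, and 6.50% of all such genes did. Among genes with 1 annotated start, 8 of 67 members (11.9%, 6.18 to 21.8) and 5.52% of all such genes had one, and the share of all genes lay below the interval. With both a single start and a neighbour within 500 bp, the counts were 7 of 49 members (14.3%, 7.10 to 26.7) and 9.90% of all such genes. How far the neighbouring promoters account for the count of the members was not tested.

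**Figure D3:**
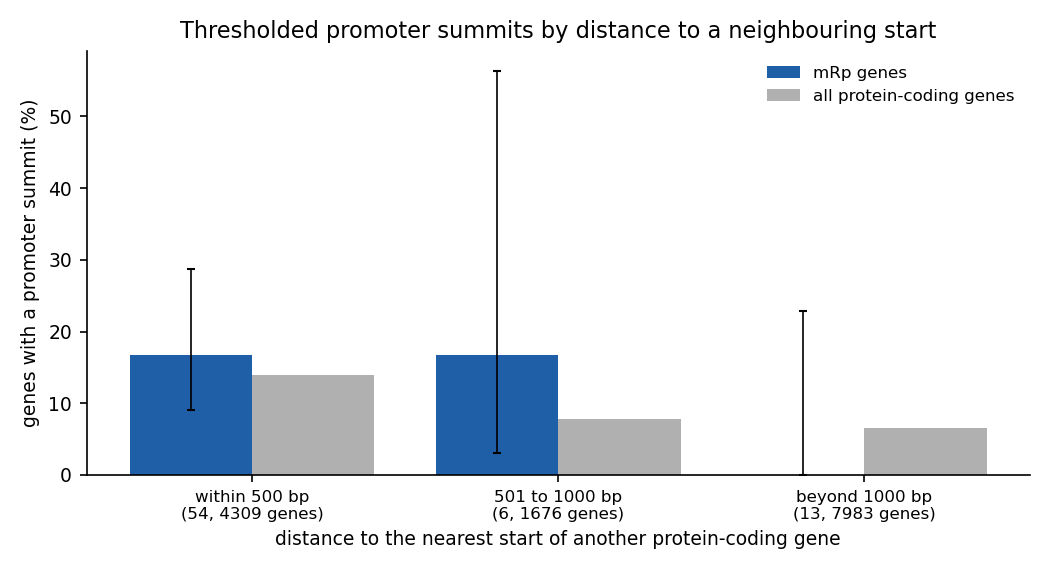
Percent of genes with a thresholded promoter summit among mRp genes (blue, with 95% Wilson intervals) and all protein-coding genes (grey), by distance to the nearest start of another protein-coding gene. The numbers under the bars are the genes in each class, mRp genes first. With a start within 500 bp the shares are 16.7% and 14.0%, and beyond 1000 bp 0 of 13 mRp genes had a summit.

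In the lists without a threshold, the shares of members were also near those of all genes. In the pooled list 29 members (39.7%, 29.3 to 51.2) had a promoter summit, against 37.8% of all protein-coding genes. In the full lists of replicates 1, 2 and 3 there were 32, 32 and 29 members. All protein-coding genes had shares of 39.3%, 35.8% and 37.5% there. A promoter summit in all 3 full lists was found at 18 members (24.7%, 16.2 to 35.6), against 22.8% of all genes. These lists reach far below the threshold, so a summit low in them is no call of binding. In at least 1 list there were 43 members (58.9%), against 54.9% of all genes, and 30 members, 20 of the large and 10 of the small subunit, were in none.

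Of the 19 members with a pooled promoter summit below the threshold, 15 shared it with another gene, and pooled ranks ran from 2510 to 22290. The matching share among all genes was not counted. Another start lay within 500 bp for 74.0% of the members and 30.8% of all genes, so the 15 may reflect only how these genes are arranged. The 5 best-ranked were mRpL32, mRpL34, mRpS7, mRpL39 and mRpS16. The mRpL32 summit, 73 bp upstream and shared with qless, a gene for a prenyl diphosphate synthase, had a pooled signal value of 132 and ranked 2510, just outside the thresholded list. Its replicate signal values were 55.4, 43.9 and 29.2, and replicate 1 alone had it among its best-ranked regions. The mRpL34 summit, 290 bp upstream and shared with the dystroglycan gene Dg, had a pooled signal value of 127 (rank 2681), with 53.3, 55.9 and 35.3 in the replicates. Replicates 1 and 2 had it among their best-ranked regions, at ranks 2406 and 1773. The mRpS7 summit, shared with the cell cycle kinase gene Cdk1, had a pooled signal value of 111 (rank 3451), with 45.5, 36.3 and 25.9 in the replicates. The mRpL39 summit, shared with the proteasome subunit gene Prosbeta2, had 90.9 (rank 4874). The mRpS16 summit, shared with cg, had 90.3 (rank 4929), and its replicate ranks were 2993, 21214 and 4998, the widest range among these 5. No member had its nearest thresholded summit more than 500 but at most 1000 bp from a start. The next after mRpL33 (442 bp) was mRpS16, at 1305 bp. The 63 members without a thresholded promoter summit had a median distance of 13239 bp to the nearest one, against 20527 bp for all such genes.

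**Figure D4:**
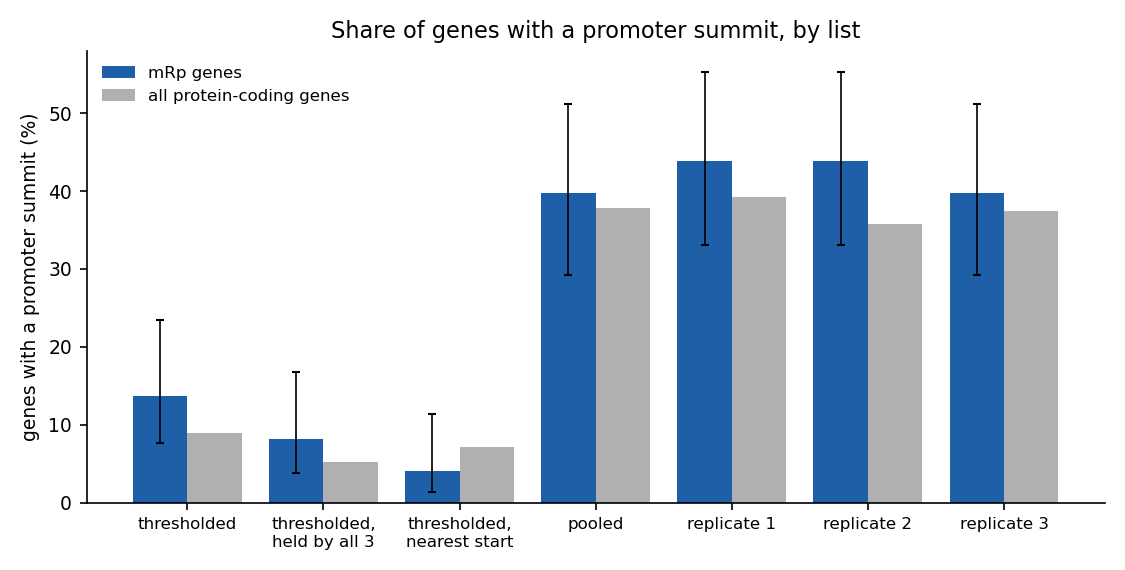
Percent of genes with a promoter summit in each list, for the 73 mRp genes (blue, with 95% Wilson intervals) and all 13968 protein-coding genes (grey). The interval includes the share of all genes in each list shown. The thresholded share of mRp genes is 13.7%, and 4.11% where a summit counts for the nearest start only.

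Narrowing the promoter to 200 bp left 6 members with a thresholded summit (8.22%, 3.82 to 16.8), against 6.12% of all genes. The 4 lost were mRpS23, mRpL2, mRpL20 and mRpL33, whose summits lay farther from their own start. With 1000 bp there were 10 members again, against 10.8% of all genes. The summits of the 10 members were at a median of 155 bp from a start, against 143 bp for all genes with a promoter summit. They were upstream of it at 9 of 10 members and 81.7% of all such genes. The median pooled signal value was 212 for the 10 members and 204 for all such genes.

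Other genes of mitochondrial function were counted the same way. Of all protein-coding genes, 8.96% had a thresholded promoter summit. None of the 24 other genes of mitochondrial translation, which encode the mitochondrial aminoacyl-tRNA synthetases and translation factors, had a thresholded one, and the upper limit that this count leaves is 12.5%. Their pooled share was 16.7% (4 of 24), against 37.8% of all protein-coding genes. None of the 10 genes for maintenance and transcription of mitochondrial DNA had a thresholded one either, which allows up to 30%. The thresholded share of all genes, 8.96%, was below both limits. The list of 68 genes for subunits of oxidative phosphorylation was taken by symbol and includes the paralogs COX6AL2, COX7AL2, ND-51L1 and ND-51L2. Of these 68 genes, 3 had a thresholded promoter summit (4.41%, 1.51 to 12.2), and this interval includes the share of all genes. The 3 were the complex I genes ND-ASHI (signal value 448, shared with the fumarase gene Fum1) and ND-MWFE (219.8, shared with TppII), and the cytochrome c oxidase gene COX5A (183, shared with glo). All 3 shared the summit with a neighbour, as 9 of the 10 ribosomal protein genes did. Beside the members' 10 of 73, the genes for cytoplasmic ribosomal proteins, which build the other ribosome of the cell, had promoter summits at 49 of 93 (52.7%, 42.6 to 62.5), with the highest at RpL41 (425), RpL14 (406), RpL7 (398) and RpL24 (378). This list was taken by symbol, so it also holds genes named only as like a ribosomal protein gene, such as RpL7-like, RpL24-like and RpLP0-like. The intervals of the mitochondrial and the cytoplasmic list did not overlap. The median pooled signal value of the called genes was 212 in the mitochondrial and 227 in the cytoplasmic list, and 24 of the 49 cytoplasmic summits were shared.

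**Figure D5:**
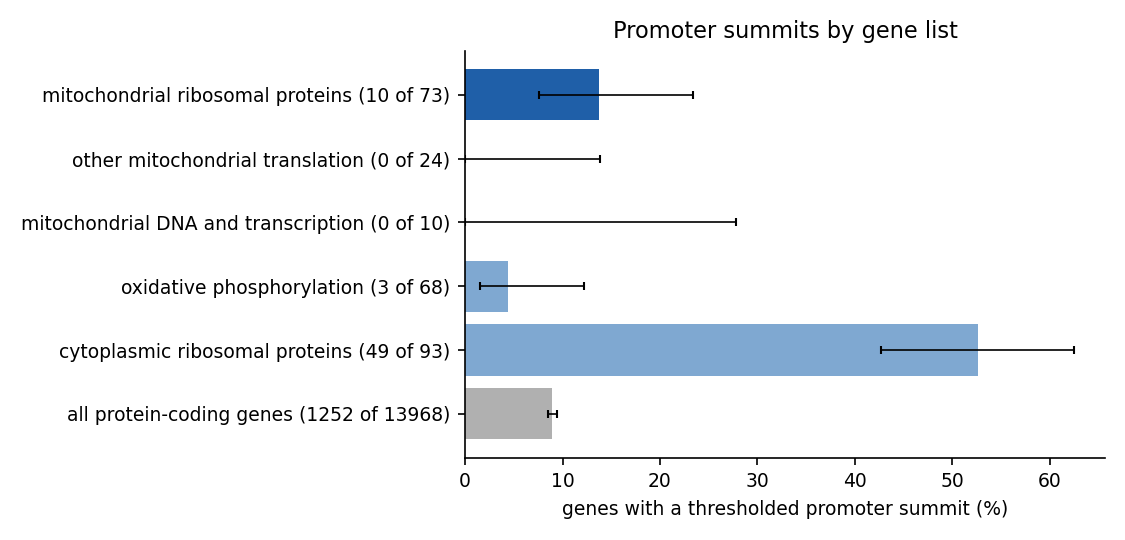
Percent of genes with a thresholded promoter summit (bars, with 95% Wilson intervals and counts beside the names) in the mitochondrial ribosomal protein genes, 4 other gene lists and all protein-coding genes. The mitochondrial ribosomal protein genes are at 13.7% and the cytoplasmic ones at 52.7%, with 0 of 24 other genes of mitochondrial translation.

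Motifs were searched on both strands in promoters from 250 bases before to 50 after the RefSeq start, and all 73 members were matched. The forkhead core GTAAACA was in 9 member promoters (12.3%) and in 9.14% of all 13944 promoters. It was in 2 of the 10 members with a promoter summit (mRpS2 and mRpS10) and in 7 of the 63 others. The wider forkhead form, A or G, then C or T, then AAA, then C or T, then A, includes that core and was in 44 (60.3%), against 62.9% of all. The DRE site TATCGATA, bound by the replication-related factor DREF, was in 15 member promoters (20.5%), against 9.37% of all. Of the 10 members with a promoter summit, 2 had it (mRpL20 and mRpS23), as did 13 of the 63 others. The core of the M1BP site, GGTCACACT, was in 8 (11%, against 6.05% of all), none of them among the 10. In the 250 bases before the start alone, the M1BP core was in only 2 of the 73 member promoters, against 3.12% of all. There the DRE site was in 9 of the 73, against 8.00% of all. The GAGA factor core, GAGAG, was in 12 (16.4%, against 29.7%), the Myc E-box CACGTG in 5 (6.85%, against 4.20%), and the NRF1 or Ewg type GCGCNTGCG in none (against 1.30%). Within 100 bases of the 10 summits, GTAAACA was found once, at mRpS10 (1 of 10, against 6.15% of the 976 promoter regions of all genes). The wider form was at 6 of the 10 (50.2% of all), GAGAG at 2 (35.8% of all) and TATCGATA at none (4.10% of all). A match is a stretch of letters only, and binding of another factor was not measured.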

How the data were processed

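The 5 dm6 peak lists were used. Per the sheets deposited with the files, the replicate lists came from the aligned reads of 1 replicate and a control file, the pooled list from those of all 3, and the thresholded list from an irreproducible discovery rate (IDR) step. Fragments were 200 to 800 bp long, per the labels. Which aligner and peak caller were run is not given in the sources used. The signal value is the score deposited by the authors. Lists in dm3 coordinates were not used.

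Regions were ranked by signal value. The thresholded list holds 2415 regions, so the 2415 best-ranked regions of each replicate were used (alternatively 1207 or 4830). Gene models were Ensembl release 115 (BDGP 6.54) and sequences and RefSeq starts the Release 6 genome. A summit counted for every protein-coding gene with a start within 500 bp. Counts of members by list, window or start rule are given beside the share of all protein-coding genes counted the same way. No test was run, because there is 1 group. Wilson intervals (statsmodels 0.14.6) cover counting error over genes only, and neighbouring genes are not independent. Where a count was 0, the upper limit given in the text is 3 divided by the number of genes. The figures show the Wilson bound for these counts, 13.8% for 0 of 24, 27.8% for 0 of 10 and 22.8% for 0 of 13. The counting was tested on simulated data. The members and lists were chosen with earlier results of these data known. Named genes are all members with a thresholded promoter summit, the next 5 by pooled rank, and up to 4 genes of each other list. Of the list symbols, 7 for translation and 1 for mitochondrial DNA were not in the annotation. Other windows, start rules, list lengths and left-out replicates were tried.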

Additional observations from a re-analysis of the deposited data

How the results depend on the processing

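Of 60 alternatives, 45 stayed within 1.5 times of the value reported (or, for the distance, within its spread). With a window of 200 bp, 6 members had a thresholded promoter summit (6.12% of all genes), 18 a pooled one (26.3%), and 5 shared the thresholded one (2.03%). Counting a summit for the nearest start only left 3 members in the thresholded list (7.21% of all genes) and 16 in the pooled list (33.3%). Among the thresholded regions above the median signal value there were 5 members (5.01% of all genes), 4 of them with a shared summit (2.21%). With regions held by both other replicates, when each replicate was left out in turn, 6 to 7 members had a promoter summit (5.91% to 6.22% of all genes) and 5 to 6 shared it (2.39% to 2.66%). The lowest values, 6 and 5, were those without replicate 1. A longer list of best-ranked regions of each replicate gave 11 members in all 3, where 9.14% of all genes were, in place of 6 members and 5.38%. With a window of 1000 bp the other translation genes had 1 summit, the mitochondrial DNA genes 1 and the oxidative phosphorylation genes 6 (10.8% of all genes). Before the start alone, the DRE site was in 9 of the 73 member promoters (8.00% of all) in place of 15. The M1BP core was in 2 (3.12% of all) in place of 8. Leaving out a replicate removes regions by construction, since only those held by both others are kept. Summits and signal values still come from the pooled reads of all 3. Read depth is unknown, so a region missing from a list cannot be called unbound.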

Other observations

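Some members ranked very differently between replicates, and 3 were chosen as examples after their values were seen. At mRpS26 a promoter summit ranked 1702 in replicate 3 (signal value 50.3), and neither replicate 1 nor replicate 2 listed one within 500 bp of its start. The pooled list held it at rank 8375. At mRpS31 replicate 2 ranked a summit at 2914 (42.7), with none in replicates 1 and 3 and a pooled rank of 10393. At mRpL53 the ranks were 25279, 6348 and 2835 in replicates 1, 2 and 3.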
